A study of Mus musculus with 12 samples.

Results

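Luminal cells were compared with basal cells of the mammary gland in MMTVRANK mice, in 6 of the 12 RNA-seq libraries of the study: 3 titled as the luminal and 3 as the basal population of that genotype. The libraries were taken by title and genotype, and no measured value enters that rule. The other 6 libraries hold the same populations from WT mice, 3 of each, and enter here for the shared estimate of spread and for 1 closing comparison. The labels give the genotype names MMTVRANK and WT, and no age, strain, treatment, reproductive stage or number of animals. MMTV is a viral promoter that drives transgenes in mammary epithelium, and Rank, encoded by Tnfrsf11a, is the receptor the genotype is named for. Live cells were sorted from dissociated glands on CD24 and CD49f, so the 2 populations differ by design in these surface proteins. The WT replicate 2 libraries carry titles at odds with their subtype entries, and were grouped by title. Their keratin levels are given below.

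The mammary epithelium has an inner luminal layer, which lines the ducts and makes milk, and an outer basal layer of myoepithelial cells, which contract under oxytocin and sit on the basement membrane. Luminal cells are of several kinds, among them hormone-sensing cells with estrogen, progesterone and prolactin receptors, and progenitors that lead to the milk-secreting alveoli. Rank, a receptor of the tumour necrosis factor receptor family, is bound by its ligand (Tnfsf11), which progesterone induces in hormone-sensing cells, and it signals through Traf adaptors to the NF-kB transcription factors. Osteoprotegerin (Tnfrsf11b) is the soluble decoy receptor that binds the ligand.

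The 6 libraries held 13488400 to 15007700 counts each. Of 18236 genes tested with edgeR's quasi-likelihood test, 6049 (33.2%) had an adjusted p under 0.05: 2943 (16.1%) were higher in luminal and 3106 (17%) higher in basal cells, and the median log2 fold change (luminal minus basal, here and below) over all tested genes was 0.048. The called genes higher in basal cells had the larger changes, with a median log2 fold change of -2.50 against 1.45 for those higher in luminal cells. A log2 difference beyond 5 was found for 343 called genes on the luminal and 596 on the basal side. The 3 luminal and 3 basal libraries did not overlap for 9946 tested genes (54.5%), among them 6001 of the 6049 called. Absence of overlap, given for many genes below, thus adds little to a call. Where every gene had to exceed a 2-fold change in the test itself, 1081 luminal and 1660 basal genes passed. The 16.1% luminal and 17% basal shares of all genes are the background for each list count below. The labels do not say whether replicates came from separate animals, so every p measures the spread between these libraries. In sorted bulk RNA, fewer cells of a type and less RNA per cell cannot be told apart.

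Luminal replicate 3 stood apart. On the first principal component of log CPM (CPM, a count relative to the TMM-scaled library total), which held 63.7% of the variance over the 12 libraries, it lay at 79.43 against 130.6 and 128.4 for the other MMTVRANK luminal libraries and -121.2 to -135.1 for the basal ones. It had more leukocyte RNA, with the 23 marker genes summing to 131, 142 and 622 CPM in luminal replicates 1 to 3 and 30.4, 29.3 and 207 CPM in basal ones. The marker Lcp1 alone made up most of that sum in luminal replicates 1 and 2, but not in luminal replicate 3 or the basal libraries. Luminal replicate 3 also had fewer hormone-sensing transcripts (20 genes, 6622, 5738 and 2342 CPM), more progenitor transcripts (20 genes, 1810.4, 2669 and 4488 CPM) and slightly more basal keratin (27.6, 74.5 and 135 CPM against 3955, 5045 and 5302 CPM in basal cells). Without that library 5446 of 19295 tested genes passed, 2565 higher in luminal and 2881 higher in basal cells, and 5079 genes were called in both fits, none in opposite directions. What part these cells play in the results was not tested. Gene list counts are given below with and without it.

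The keratins matched the labels. All 4 luminal keratins were higher in luminal and all 4 basal keratins higher in basal cells. Krt18 was at 3953, 3716 and 2281 CPM in luminal and 55.3, 45.2 and 42.5 CPM in basal replicates 1 to 3 (log2 fold change 6.12, SE 0.30, adjusted p = 1.30e-07). Krt8, its partner in the same filament, was at 1794, 1617 and 1075 against 126, 103 and 95.4 CPM (log2 3.79, adjusted p = 8.28e-07), Krt19 differed by 6.74 and Krt7 by 5.82 on the log2 scale. Krt5 was at 7.22, 1.09 and 7.85 against 1127, 1112 and 1090.0 CPM (log2 fold change -7.68, SE 0.87, adjusted p = 6.25e-05) and Krt14 at 10.2, 23.8 and 69.2 against 1819, 2228 and 2858 CPM (log2 -6.06, adjusted p = 3.49e-04), with Krt15 at -5.02 and Krt17 at -5.13 on the log2 scale. No library of one population overlapped the other in any of the 8 keratins, and luminal replicate 3 had the highest Krt14 of the luminal libraries. Per kilobase of exon, Krt18 was the most abundant of the 8 keratins in luminal cells (2308 mean CPM per kb) and Krt14 in basal cells (1309 mean CPM per kb). The genes of the sorted proteins followed the gate: Itga6 (CD49f) was at 311, 379.9 and 387 against 2058, 2218 and 2421 CPM (log2 -2.64, adjusted p = 6.41e-06) and Cd24a at 826, 747 and 594 against 243, 319 and 493 CPM (log2 1.04, adjusted p = 0.0476). The Cd24a call was lost with the replicate number as a block (adjusted p = 0.0726) and without MMTVRANK basal replicate 1 (adjusted p = 0.161), MMTVRANK luminal replicate 1 (adjusted p = 0.142), MMTVRANK basal replicate 2 (adjusted p = 0.141), MMTVRANK luminal replicate 2 (adjusted p = 0.113), WT basal replicate 2 (adjusted p = 0.0626), MMTVRANK luminal replicate 3 (adjusted p = 0.0567) or WT luminal replicate 3 (adjusted p = 0.0583).

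**Figure D1:**
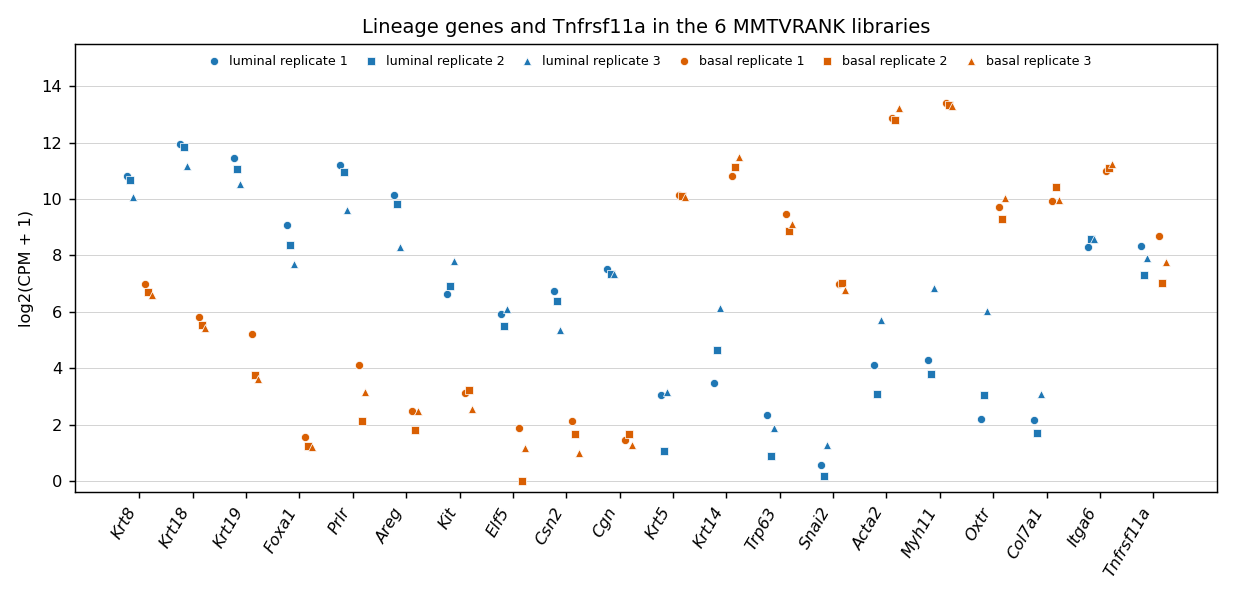
Level of 20 genes in each of the 6 MMTVRANK libraries, as log2(CPM + 1) on the vertical axis. Blue points are luminal and orange points basal libraries, and the shape gives the replicate. Luminal genes from Krt8 to Cgn and basal genes from Krt5 to Itga6 separate the populations without overlap, luminal replicate 3 (blue triangle) lies nearest to basal for Krt18, Prlr, Acta2 and Myh11, and Tnfrsf11a overlaps.

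Tnfrsf11a itself did not separate the populations. The gene (chr1:105780718-105847981, plus strand in GRCm38) was at 319, 156 and 238 CPM in luminal and 415, 129 and 218 CPM in basal replicates 1 to 3. Basal replicate 1 was the highest and basal replicate 2 the lowest of the 6, and the groups overlapped (log2 fold change -0.10, SE 0.83, adjusted p = 0.946). With an SE of that size a 2-fold difference in either direction was not detectable, and the sign turned with the replicate number as a block (log2 0.0060) and without basal replicate 1 (0.46) or luminal replicate 2 (0.14). In WT the gene was at 6.36, 90.8 and 9.91 CPM in luminal and 73.7, 158 and 65.3 CPM in basal replicates 1 to 3. Both libraries labelled WT replicate 2 were the highest of their group, and the basal one lay above 2 of the MMTVRANK libraries. By keratins these 2 libraries went with their titles. Krt18 was at 5584 CPM in the one titled luminal and 74.8 CPM in the one titled basal. Krt5 was at 1.70 and 1878.5 CPM. Without these 2 libraries in the fit, 5837 genes passed. The counts do not separate transgene RNA from that of the gene itself.

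The 12 genes with the largest luminal excess by the naming rule were at or near 0 in every basal library. Upk3a, a uroplakin known from the bladder lining (chr15:85017141-85022547, plus strand), was at 197, 116 and 54.3 CPM in luminal and 0, 0 and 0.235 CPM in basal replicates 1 to 3 (log2 fold change 10.44, SE 1.22, adjusted p = 7.78e-05). With only 3 counts over the basal libraries, the ratio of summed levels was 1499.5 (95% exact interval 513 to 7273), and that interval covers counting error only. Cxcl15, a chemokine first known from lung epithelium, was at 177, 106 and 37.7 against 0.227, 0 and 0 CPM, a ratio of 1306 (95% exact interval 446 to 6332). Both were lowest in luminal replicate 3 among the luminal libraries. The rule took only called genes without overlap and ranked them by fold change, so separation and low basal levels follow from it. Clca1, a secreted protein of mucous epithelia, had a ratio of 1352 (95% exact interval 242 to 53423), the metabotropic glutamate receptor Grm8 1048 (95% exact interval 188 to 41408), the calpain Capn8 523 (95% exact interval 179 to 2538) and the small secreted inhibitor Wfdc12 1160.1 (95% exact interval 208 to 45854), each on 1 to 3 basal counts.

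Of the other 6 genes named by the same rule, Fgb, the fibrinogen beta chain, was at 791, 153 and 92.7 against 1.81, 0.0843 and 0.157 CPM (log2 8.92, adjusted p = 2.65e-04), with luminal replicate 1 far above the rest. Abcc8, the regulatory subunit of an ATP-sensitive potassium channel, was at 189.9, 236 and 80.0 against 1.21, 0.253 and 0.313 CPM (log2 8.11, adjusted p = 1.21e-05). R3hdml (9.0), Ccbe1 (8.32), a secreted factor of lymphatic growth, and Ttc6 (8.30) had log2 fold changes of similar size. Calca, which encodes calcitonin and a related peptide, was uneven: 0.953, 128 and 107 against 0, 0.0843 and 0.47 CPM (log2 8.67, adjusted p = 0.0248), nearly absent from luminal replicate 1. Its call was lost without MMTVRANK basal replicate 1 (adjusted p = 0.095), MMTVRANK basal replicate 2 (adjusted p = 0.0913), MMTVRANK luminal replicate 2 (adjusted p = 0.0694), MMTVRANK basal replicate 3 (adjusted p = 0.0722) or MMTVRANK luminal replicate 3 (adjusted p = 0.073). That of Wfdc12 (log2 9.78, adjusted p = 0.0117) was lost without MMTVRANK basal replicate 1 (adjusted p = 0.0629), MMTVRANK basal replicate 2 (adjusted p = 0.0524) or MMTVRANK basal replicate 3 (adjusted p = 0.0527). The other 10 kept their calls in each fit that left out 1 library. With limma-voom the calls of Fgb (adjusted p = 0.0609), Wfdc12 (0.118) and Calca (0.421) were lost.

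The 12 genes with the largest basal excess were at most a few CPM in any luminal library. Luzp2, a leucine zipper protein, was at 0, 0 and 0.176 CPM in luminal and 74.3, 67.0 and 57.9 CPM in basal replicates 1 to 3 (log2 fold change -9.85, SE 0.85, adjusted p = 7.09e-06), with 3 luminal counts in all and a basal over luminal ratio of 1050.4 (95% exact interval 359 to 5097). Lrfn5, a neuronal adhesion protein, had 1 luminal count and a ratio of 774 (95% exact interval 138 to 30620.0). Fmod, the collagen-binding proteoglycan fibromodulin (chr1:134037254-134048277, plus strand), was at 0.408, 0.511 and 4.04 against 833, 644 and 1039 CPM (log2 fold change -8.95, SE 1.07, adjusted p = 9.18e-05) and Reln, the secreted protein reelin, at 2.38, 0.32 and 5.04 against 871, 995 and 992 CPM (log2 -8.51, adjusted p = 4.68e-05). For both, luminal replicate 3 had the highest luminal value, and the naming rule itself required every luminal library to lie below every basal one. Sorcs1, a sorting receptor, was at 0.613, 0.256 and 1.11 against 257, 281 and 301 CPM (log2 -8.69, adjusted p = 2.64e-07), and the potassium channel genes Kcnq5 (-9.06) and Kcnmb1 (-8.84) had log2 differences of the same order. The cytokine Il17b (-8.58), the fibulin Fbln7 (-8.56), the IGF-binding protein Igfbp2 (-8.51), the coactivator Eya1 (-8.46) and Dlk2 (-8.41), related to Notch ligands, completed the 12, and all 12 kept their calls whichever library was left out. Il17b shares 20.4% of its exon length with a clone transcript, so its reads could be split.

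Of 26 luminal transcription factors, 18 were higher in luminal and 4 higher in basal cells (median log2 2.25; without luminal replicate 3, 18 and 4 of 26). Foxa1, which opens chromatin for the estrogen receptor, was at 543, 329 and 208 CPM in luminal and 1.97, 1.35 and 1.33 CPM in basal replicates 1 to 3 (log2 fold change 7.85, SE 0.55, adjusted p = 1.67e-06). Elf5, the factor of alveolar differentiation, was at 59.3, 44.2 and 68.0 against 2.65, 0 and 1.25 CPM (log2 5.43, adjusted p = 3.87e-04). The 2 populations did not overlap for either gene, and luminal replicate 3 was lowest for Foxa1 and highest for Elf5 among luminal libraries. Cited1 (7.72), Spdef (5.25), Ehf (5.74), Myb (5.15) and Elf3 (3.31) were also higher in luminal cells, and Trps1 (1.81), Xbp1 (1.42) and Stat5a (1.15), which carries the prolactin signal, by less (log2 fold changes). Gata3, a regulator of luminal fate, was at 333, 254 and 219 against 214, 158 and 207 CPM and was not called (log2 0.48, adjusted p = 0.174), with the 3 luminal values above the basal ones by a narrow margin. The members higher in basal cells included Tfap2c (-2.50), Runx1 (-1.34) and Cebpb (-1.66), where 20.7% of the exon length of Cebpb is shared with an opposite gene.

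Hormone-sensing markers gave the highest median of the luminal lists other than the keratins: 14 of 19 tested were higher in luminal and 2 in basal cells (median log2 5.15; without luminal replicate 3, 14 and 2 of 19). Prlr, the prolactin receptor, was at 2338, 2014 and 791 CPM in luminal and 16.3, 3.37 and 7.91 CPM in basal replicates 1 to 3 (log2 fold change 7.54, SE 0.69, adjusted p = 1.33e-05). Esr1, the estrogen receptor, was at 215, 199 and 70.2 against 18.5, 27.1 and 12.2 CPM (log2 3.07, adjusted p = 9.60e-04) and Pgr, the progesterone receptor, at 357, 288 and 63.0 against 32.3, 32.5 and 48.2 CPM (log2 2.65, adjusted p = 0.00286). Luminal replicate 3 was the lowest luminal library in all 3 receptors, and its Pgr lay close to the highest basal value. The EGF-family ligand Areg, which mediates estrogen action, was at 1131, 911 and 316 against 4.61, 2.53 and 4.62 CPM (log2 7.64, adjusted p = 1.97e-04). Stc2 (6.30), Prom1 (4.92), Wnt4 (5.18), Tph1 (7.24), which makes serotonin, and Ly6a (3.45) were higher too (log2). The carbonyl reductase Cbr2 was higher in basal cells (log2 -3.58, adjusted p = 1.16e-04). The Rank ligand gene Tnfsf11, another member, was at 0.204, 33.5 and 25.6 against 0, 0 and 1.41 CPM and was not called (log2 5.36, adjusted p = 0.102): luminal replicate 1 was near 0 while replicates 2 and 3 were high. In the fit of the 6 MMTVRANK libraries with the replicate number as a block it was called (adjusted p = 0.0122).

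Luminal progenitor markers were mixed. Of 20 tested, 10 were higher in luminal and 3 in basal cells (median log2 1.51; without luminal replicate 3, 10 and 4 of 20), beside 16.1% and 17% of all genes. Kit, the stem cell factor receptor, was at 98.5, 121 and 221 CPM in luminal and 7.79, 8.35 and 4.86 CPM in basal replicates 1 to 3 (log2 fold change 4.39, SE 0.44, adjusted p = 1.65e-05), highest in luminal replicate 3. Wfdc18, a secreted protein of the WAP family, was at 164, 477 and 442 against 4.16, 1.69 and 4.15 CPM (log2 6.75, adjusted p = 1.43e-04) and Cd14, a co-receptor for bacterial lipopolysaccharide, at 164, 178 and 376 against 4.99, 4.30 and 6.97 CPM (log2 5.46, adjusted p = 1.58e-04). Plet1 (5.42), Rspo1 (5.78) and Basp1 (5.76) differed by similar amounts on the log2 scale. Aldh1a3, an aldehyde dehydrogenase used to mark progenitors, was low in both populations at 6.53, 4.73 and 3.81 against 0.756, 1.43 and 1.88 CPM (log2 1.88, adjusted p = 0.0328), and its call was lost with the replicate block (adjusted p = 0.073) and without MMTVRANK basal replicate 1 (adjusted p = 0.116), MMTVRANK luminal replicate 1 (adjusted p = 0.0952), MMTVRANK basal replicate 2 (adjusted p = 0.0835) or MMTVRANK luminal replicate 2 (adjusted p = 0.0588). In the other direction, Lcn2, the iron-sequestering lipocalin, was at 109, 133 and 159.6 against 1351, 1331 and 1882 CPM (log2 fold change -3.51, SE 0.38, adjusted p = 2.59e-05) and the integrin Itgb3 at 3.74, 1.85 and 11.2 against 70.4, 104 and 102 CPM (log2 -4.03, adjusted p = 3.25e-04). The Notch target Hey1 was higher in basal cells as well (log2 -2.41, adjusted p = 0.0154), a call lost without MMTVRANK basal replicate 1 (adjusted p = 0.063) or MMTVRANK luminal replicate 2 (adjusted p = 0.0609).

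Milk and alveolar genes were transcribed at modest levels: 10 of 22 tested were higher in luminal and 2 in basal cells, with a median log2 of 3.14, or 1.94 with a member that had no count in 1 population set to its bound at 3 counts over the group. Without luminal replicate 3 the counts were 10 and 2 of 22. The caseins Csn2, at 105, 82.4 and 40.5 against 3.40, 2.19 and 1.02 CPM (log2 5.10, adjusted p = 0.00172), and Csn1s1, at 105, 98.5 and 47.9 against 2.12, 0.422 and 0.862 CPM (log2 6.18, adjusted p = 1.47e-04), did not overlap between populations and were lowest in luminal replicate 3. Csn3 was not called, at 35.6, 12.3 and 13.3 against 34.9, 20.2 and 41.0 CPM (log2 -0.65, adjusted p = 0.383). Lalba, the lactose synthase subunit, was called on 29 luminal and 1 basal counts, a ratio of 23.2 (95% exact interval 3.84 to 946), and the call was lost without MMTVRANK basal replicate 2 (adjusted p = 0.0564) or MMTVRANK basal replicate 3 (adjusted p = 0.0553). Wap had 10 luminal and 3 basal counts and was not tested. Butyrophilin Btn1a1 (6.35), Muc15 (4.24), the folate receptor Folr1 (4.45) and the immunoglobulin transporter Pigr (4.96) were higher in luminal cells (log2). Xdh, the milk fat globule enzyme xanthine dehydrogenase, was higher in basal cells (log2 -1.38, adjusted p = 0.00189). Glycam1 was at 1.16, 0.767 and 2.11 against 0, 581 and 79.7 CPM, 0 in basal replicate 1, and its call (log2 -7.33, adjusted p = 0.0479) was lost in 10 of the 12 fits that left out 1 library, the exceptions being those without MMTVRANK basal or WT basal replicate 1. The largest adjusted p of these fits was 0.186, without MMTVRANK luminal replicate 1, and with the replicate block it was 0.309.

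Motifs were looked for in the 250 bases before each gene's RefSeq start (GRCm38.p6). The letters TTCNNNGAA, which STAT factors such as Stat5a recognise, were chosen after the values were seen and read the same on both strands. They were in the windows of 3 of the 17 milk genes with a RefSeq promoter (Csn1s1, Csn2 and Glycam1) and of 8.13% of 27025 genes. The window of Csn1s1 (chr5:87665958-87666207, plus strand) is shown because this casein separated the populations and holds the motif (in capitals), 100 bases before the start.
Csn1s1: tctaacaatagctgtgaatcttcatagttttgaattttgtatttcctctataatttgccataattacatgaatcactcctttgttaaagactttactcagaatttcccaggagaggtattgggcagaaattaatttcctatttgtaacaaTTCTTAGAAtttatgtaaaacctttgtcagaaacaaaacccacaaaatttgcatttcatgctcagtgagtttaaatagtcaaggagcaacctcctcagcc
The match is a description of the letters and does not show that a factor bound there.

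Basal transcription factors were higher in basal cells for 14 of 17 tested members (median log2 -1.62; without luminal replicate 3, 14 of 18). Trp63, the p53 relative that maintains basal identity, was at 4.02, 0.831 and 2.69 CPM in luminal and 704, 471 and 555 CPM in basal replicates 1 to 3 (log2 fold change -7.84, SE 0.55, adjusted p = 1.93e-06). Snai2, a repressor linked to stem-like basal cells, was at 0.476, 0.128 and 1.41 against 128, 129.7 and 108 CPM (log2 -7.45, adjusted p = 9.92e-06), and Id4 at 1.77, 0.767 and 3.51 against 532, 420.0 and 599 CPM (log2 -7.98, adjusted p = 2.79e-06). Neither population overlapped the other in these 3 genes. Myocd, the coactivator that turns on smooth muscle genes, was low in basal and nearly absent from luminal cells, at 0.136, 0.128 and 0.117 against 4.61, 8.94 and 16.3 CPM (log2 -6.20, adjusted p = 5.39e-05). Egr2 (-3.44) and Foxp1 (-1.15) were higher in basal cells, and Meis1 (1.89) and Mkl2 (0.47) higher in luminal cells on the log2 scale. The Mkl2 call was lost without MMTVRANK basal replicate 1 (adjusted p = 0.0751), MMTVRANK luminal replicate 1 (adjusted p = 0.142), MMTVRANK basal replicate 2 (adjusted p = 0.0512), MMTVRANK basal replicate 3 (adjusted p = 0.102) or MMTVRANK luminal replicate 3 (adjusted p = 0.0695) and with RLE size factors (adjusted p = 0.058). It was also lost without the filter on low counts and with the 6 MMTVRANK libraries alone, with or without the replicate block.

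Contractile genes of the myoepithelium were nearly uniform: 26 of 27 were higher in basal cells and none in luminal cells (median log2 -5.19; 26 of 27 without luminal replicate 3). Their summed level was 40958, 40995 and 43462 CPM in basal and 1921, 2272 and 2616 CPM in luminal replicates 1 to 3. Acta2, smooth muscle actin, was at 16.5, 7.48 and 51.9 CPM in luminal and 7534, 7220.3 and 9511 CPM in basal replicates 1 to 3 (log2 fold change -8.32, SE 0.77, adjusted p = 1.34e-05), and Myh11, smooth muscle myosin, at 18.9, 12.9 and 114 against 10911, 10357 and 10189 CPM (log2 -7.75, adjusted p = 6.69e-05). Oxtr, the oxytocin receptor, was at 3.61, 7.29 and 64.3 against 845, 624 and 1039.6 CPM (log2 -5.06, adjusted p = 0.00274). Luminal replicate 3 had the highest luminal value of each of the 3 genes, and the groups did not overlap. Tpm2 (-7.89), Tgfb1i1 (-7.39), Cnn1 (-8.28), Actg2 (-7.69) and Myl9 (-7.92) differed by more than 7 on the log2 scale, whereas Tpm1 (-2.65) and Vcl (-2.23), which other cells also use for their cytoskeleton, differed by less. Vcl shares 25.5% of its exon length with a gene on the other strand. Tagln was called at -6.84, with 67.9% of its exon length shared with neighbouring transcripts. The intermediate filament gene Des was not called (log2 -1.29, adjusted p = 0.229).

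The CArG box is bound by serum response factor, the partner of myocardin, and reads the same on both strands. It was found in the 250-base window of 2 of the 22 contractile genes with a RefSeq promoter, Myl9 and Vcl, and of 1.62% of 27025 genes. Both windows are shown with the box in capitals, since the 2 genes carry it and differed by unequal amounts. Bases that the deposited annotation places in an exon were left off, which shortens that of Myl9 (chr2:156775214-156775419, plus strand, box 161 bases before the RefSeq start). The Vcl window is chr14:20929148-20929397, plus strand, with the box 227 bases before the start.
Myl9: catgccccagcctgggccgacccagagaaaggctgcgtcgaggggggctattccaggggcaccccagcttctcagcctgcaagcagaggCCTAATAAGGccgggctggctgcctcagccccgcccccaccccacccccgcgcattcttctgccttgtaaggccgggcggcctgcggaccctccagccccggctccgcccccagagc
Vcl: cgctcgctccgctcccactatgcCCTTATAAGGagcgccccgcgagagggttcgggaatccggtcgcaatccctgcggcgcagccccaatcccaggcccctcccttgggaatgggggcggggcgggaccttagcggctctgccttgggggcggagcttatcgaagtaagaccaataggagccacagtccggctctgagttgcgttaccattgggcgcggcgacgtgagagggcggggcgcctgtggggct
Myl9 was at 3.34, 0.959 and 7.03 against 956, 782 and 1022 CPM and Vcl at 139.9, 191 and 172 against 686, 933 and 745 CPM, without overlap in either gene. The windows of the other 20 contractile genes did not hold these letters.

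Basement membrane and hemidesmosome genes were higher in basal cells for 23 of 26 members (median log2 -3.73; without luminal replicate 3, 23 of 26). Col7a1, the anchoring fibril collagen, was at 3.54, 2.24 and 7.50 CPM in luminal and 972, 1379 and 992 CPM in basal replicates 1 to 3 (log2 fold change -7.97, SE 0.63, adjusted p = 4.52e-06). The laminin chain Lama1 was at 12.9, 13.2 and 36.3 against 1878, 1584 and 1549 CPM (log2 -6.32, adjusted p = 2.95e-06), and no library overlapped. Lama3 (-6.72), the hemidesmosomal collagen Col17a1 (-7.26), Col4a1 (-6.41), Col4a5 (-3.35), Lamc1 (-3.03) and Sparc (-7.14) followed on the log2 scale. Lama5 was the 1 member higher in luminal cells (log2 1.11, adjusted p = 0.00175). Of 15 integrins, 10 were higher in basal and 2 in luminal cells (median log2 -1.81; without luminal replicate 3, 11 and 2). Itga1, a collagen-binding chain, was at 1.16, 1.53 and 6.03 against 191, 207 and 201 CPM (log2 -6.08, adjusted p = 1.47e-05) and Itga8 at 1.23, 1.60 and 5.92 against 223, 241 and 206 CPM (log2 -6.24, adjusted p = 1.76e-05), while Itga3 (-1.62), Itga5 (-2.11) and the common partner Itgb1 (-1.50) differed by less. The 2 higher in luminal cells were Itgb6 (1.85) and Itgb4 (1.03), the hemidesmosome chain that pairs with Itga6.

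Genes of tight junctions and apical polarity were the counterpart in luminal cells, with 18 of 24 tested members higher there and 2 higher in basal cells (median log2 3.36; without luminal replicate 3, 18 and 2 of 24). Cgn, the junction plaque protein cingulin, was at 184, 162 and 163 CPM in luminal and 1.74, 2.19 and 1.41 CPM in basal replicates 1 to 3 (log2 fold change 6.57, SE 0.23, adjusted p = 2.16e-08), with little spread in either population. Crb3, which organises the apical membrane, was at 31.8, 32.5 and 27.2 against 0.303, 0.337 and 0.47 CPM (log2 6.33, adjusted p = 1.22e-07), and Cldn7, a claudin, at 131, 137 and 116 against 2.19, 0.843 and 0.862 CPM (log2 6.60, adjusted p = 1.30e-07). Cldn3 (7.11), Cldn4 (7.39), Ocln (6.92), Tjp3 (5.84) and Epcam (2.98) were higher on the log2 scale too, and Pard3 (-1.41) and Cldn12 (-1.07) were higher in basal cells. Cadherins and desmosomal genes split: 5 of 17 were higher in luminal and 8 in basal cells (without luminal replicate 3, 4 and 7 of 17). P-cadherin, Cdh3, was at 3.81, 3.20 and 5.80 against 450.2, 546 and 501 CPM (log2 -6.86, adjusted p = 4.17e-07), whereas E-cadherin, Cdh1, was higher in luminal cells by 1.48 on the log2 scale. Plakophilins went opposite ways, Pkp2 at 53.4, 56.8 and 50.7 against 1.21, 0.169 and 0.0783 CPM (log2 6.73, adjusted p = 1.35e-04) and Pkp1 at 61.0, 25.6 and 25.7 against 161, 206 and 132 CPM (log2 -2.15, adjusted p = 0.0013). The p63 target Perp was higher in basal cells (-2.91).

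**Figure D2:**
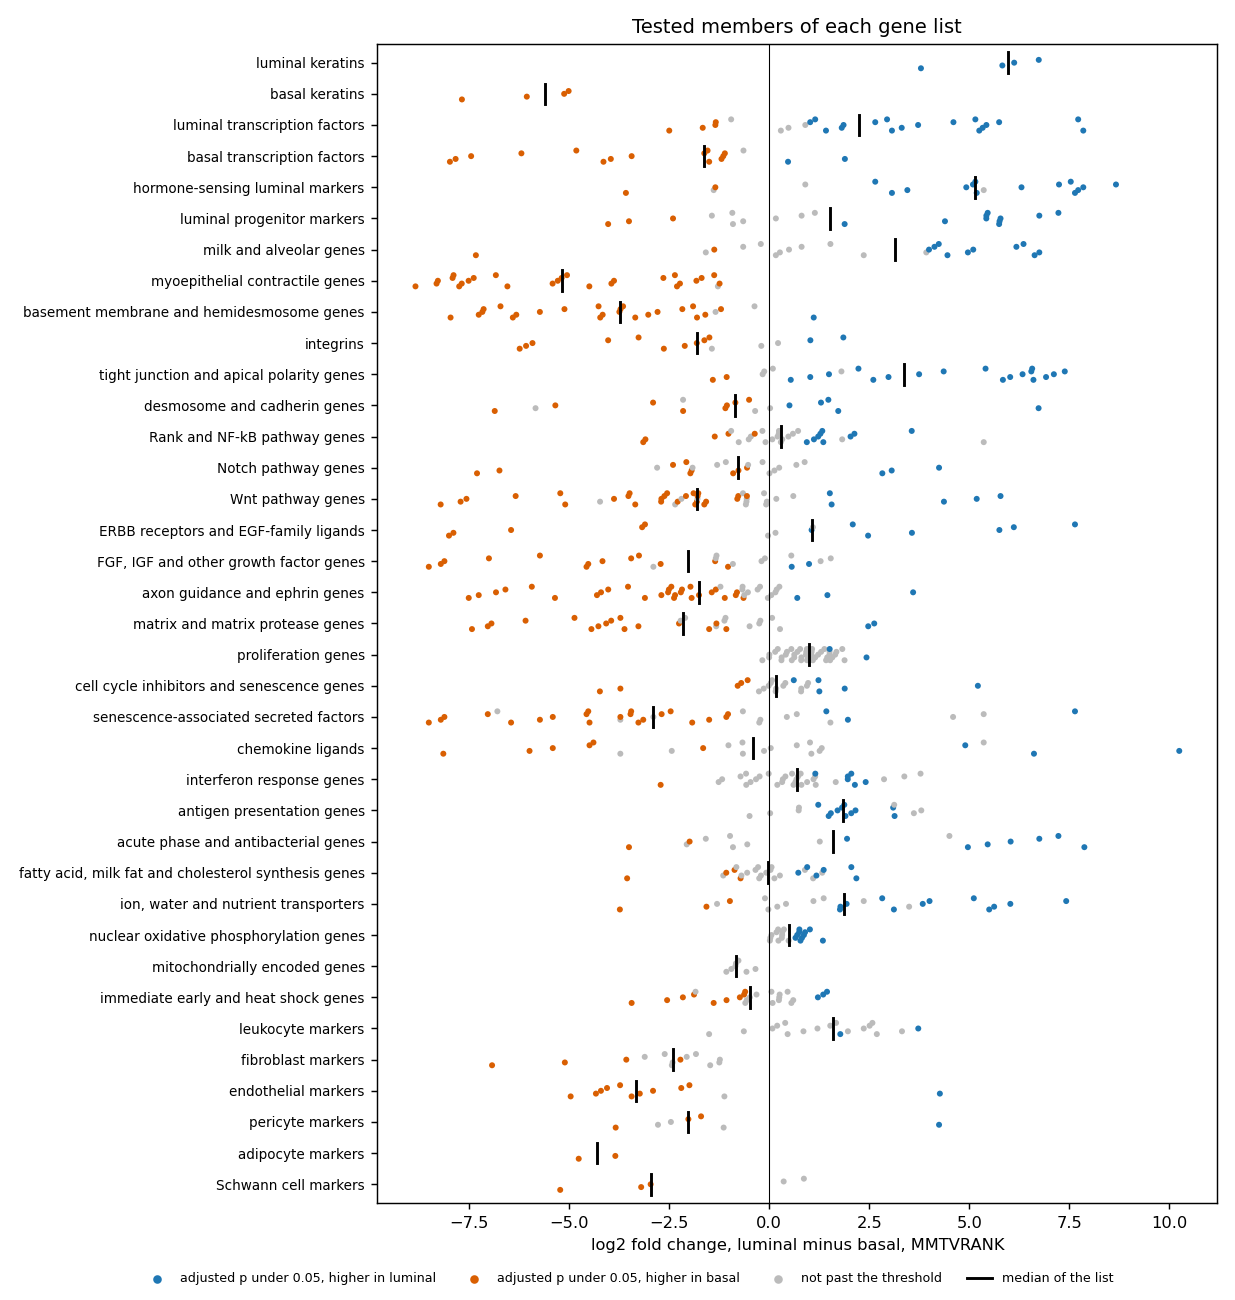
Log2 fold change (luminal minus basal, horizontal axis) of every tested member of each gene list, 1 row per list. Blue and orange points passed an adjusted p of 0.05 as higher in luminal or basal cells, grey points did not, and the black bar is the list's median: -5.19 for contractile genes, -3.73 for basement membrane, 3.36 for tight junctions and 5.15 for hormone-sensing markers.

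Of the Rank and NF-kB pathway, 9 of 31 genes were higher in luminal and 5 in basal cells (median log2 0.29; without luminal replicate 3, 7 and 4 of 31). Over all genes the shares were 16.1% and 17%, so the basal count was near that background. Nfkbia, the inhibitor that NF-kB itself induces, was at 379.6, 433 and 435 CPM in luminal and 79.4, 119 and 107 CPM in basal replicates 1 to 3 (log2 fold change 2.03, SE 0.25, adjusted p = 5.34e-05). Bcl3, a co-regulator of the pathway, was at 185, 227 and 163 against 28.1, 56.3 and 47.1 CPM (log2 2.13, adjusted p = 0.00334). For both genes every luminal library lay above every basal one. The basal count was 2 or 3 in 10 of the 12 fits that left out 1 library, and 4 without WT luminal replicate 1 or MMTVRANK luminal replicate 3. Among Traf adaptors, Traf2 (log2 1.32) and Traf6 (0.94) were moderately higher in luminal cells, as was the pathway gene Ikbkg (1.12). Another Traf adaptor, Traf5, was higher in basal cells, at 3.13, 4.03 and 5.27 against 32.4, 39.5 and 34.8 CPM (log2 -3.10, adjusted p = 2.10e-04). The subunits Nfkb1 and Relb went opposite ways. Nfkb1 was higher in basal cells (log2 -1.02, adjusted p = 0.0141), a call lost without MMTVRANK luminal replicate 1 (adjusted p = 0.0559) or MMTVRANK basal replicate 2 (adjusted p = 0.0664). Relb was called higher in luminal cells, with log2 values of 0.88 to 1.61 over the fits that left out 1 library. Its call was lost in 11 of 21 alternative fits, among them that of the 6 MMTVRANK libraries alone. The decoy receptor Tnfrsf11b was at 0, 1.21 and 16.0 against 37.2, 52.4 and 64.6 CPM (log2 -3.15, adjusted p = 0.0474), higher in every basal library but at the edge of the threshold. Its call was kept in 2 of the 12 fits that left out 1 library, those without MMTVRANK luminal replicate 1 or 3, and in the other 10 the adjusted p ran from 0.0569 without WT basal replicate 2 to 0.15 without MMTVRANK luminal replicate 2. The Tnfrsf11b call was also lost with DESeq2 and with the 6 MMTVRANK libraries alone. Ccnd1, cyclin D1, was at 208, 239.7 and 343 against 102, 103 and 134 CPM (log2 1.22, adjusted p = 0.0177; lost without MMTVRANK basal replicate 1 (adjusted p = 0.0657), MMTVRANK basal replicate 2 (adjusted p = 0.0667) or MMTVRANK luminal replicate 3 (adjusted p = 0.0604)), and it shares 23.4% of its exon length with a gene on the other strand.

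The Notch ligands Jag2, Dll1 and Jag1 were higher in basal cells and the receptor Notch3 in luminal cells. Jag2 was at 2.18, 1.28 and 5.27 CPM in luminal and 334, 285 and 328 CPM in basal replicates 1 to 3 (log2 fold change -6.74, SE 0.45, adjusted p = 1.12e-06), Dll1 at 1.70, 1.21 and 4.75 against 495, 299.8 and 433 CPM (log2 -7.31, adjusted p = 2.21e-05) and Jag1 at 122, 84.7 and 58.2 against 319, 383 and 315 CPM (log2 -1.94, adjusted p = 1.10e-04). The receptor Notch3 was at 212, 187 and 149 against 6.05, 2.11 and 20.7 CPM (log2 4.24, adjusted p = 5.01e-04) and the target gene Hes1 was higher in luminal cells by 2.83 on the log2 scale. Notch1 was at 142, 144 and 327 against 114, 145 and 125 CPM and not called (log2 0.68, adjusted p = 0.0955). It passed when MMTVRANK luminal replicate 1 or 2 was left out (adjusted p = 0.0446 and 0.0498), and replicate 3 was the high library. Over the 23 tested pathway genes, 3 were higher in luminal and 9 in basal cells (median log2 -0.77; without luminal replicate 3, 3 and 9 of 24), beside 16.1% and 17% of all genes. Without MMTVRANK luminal replicate 2 the basal count was 5. Dll1 shares 20.6% of its exon length with another transcript.

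Wnt pathway genes leaned to basal cells, with 26 of 44 tested higher there and 5 higher in luminal cells (median log2 -1.80; without luminal replicate 3, 26 and 5 of 46). Wif1, a secreted Wnt inhibitor, was at 1.29, 0.895 and 3.92 CPM in luminal and 543, 627 and 675 CPM in basal replicates 1 to 3 (log2 fold change -8.21, SE 0.59, adjusted p = 2.37e-06). The ligand Wnt10a was at 0.272, 0 and 0.176 against 24.4, 39.3 and 25.9 CPM (log2 -7.57, adjusted p = 2.18e-06), and Wnt6 differed by -7.72 on the log2 scale. Lgr4, an R-spondin receptor, was at 22.2, 18.7 and 26.3 against 258, 192 and 235 CPM (log2 -3.35, adjusted p = 2.44e-07). The feedback inhibitor Nkd1 (-6.34) and Dkk3 (-5.22) were higher in basal cells, and the target Axin2 (log2 -1.81, adjusted p = 0.0164) as well, though its call was lost without MMTVRANK basal replicate 1 (adjusted p = 0.0612) or MMTVRANK luminal replicate 1 (adjusted p = 0.0589). In luminal cells the ligands Wnt4 (5.18) and Wnt7b, at 39.6, 46.4 and 34.2 against 1.51, 2.19 and 2.12 CPM (log2 4.37, adjusted p = 4.99e-06), and the R-spondin Rspo1 (5.78) were higher. The stem cell markers Lgr5, at 8.92, 13.0 and 9.78 against 18.8, 14.3 and 13.8 CPM (log2 -0.56, adjusted p = 0.179), and Procr, at 0.681, 0.256 and 2.87 against 4.99, 6.32 and 6.35 CPM (log2 -2.20, adjusted p = 0.0833), were not called, although every basal library exceeded every luminal one. Procr passed in 9 of its 21 alternative fits, among them DESeq2 (adjusted p = 0.0211), limma-voom (0.019), the replicate block (0.0452), the 6 MMTVRANK libraries alone (0.0479) and those without WT luminal replicate 2 (adjusted p = 0.0335) or MMTVRANK luminal replicate 3 (adjusted p = 0.0143).

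Growth factor ligands and receptors were divided between the layers. Among 15 ERBB genes, 7 were higher in luminal and 5 in basal cells (without luminal replicate 3, 7 and 5 of 15), beside 16.1% and 17% of all genes. The receptors Erbb2, at 207, 173 and 142 against 29.0, 37.0 and 28.4 CPM (log2 2.47, adjusted p = 1.35e-05), and Erbb3, at 465, 416 and 331 against 11.0, 2.28 and 9.09 CPM (log2 5.75, adjusted p = 1.19e-04), were higher in luminal cells, while Egfr was higher in basal cells (log2 -3.18, adjusted p = 5.99e-04). The neuregulin Nrg1, a ligand of Erbb3, was at 0.953, 1.15 and 1.23 CPM in luminal and 294, 416 and 157 CPM in basal replicates 1 to 3 (log2 fold change -8.01, SE 0.61, adjusted p = 3.34e-06), and Nrg2 differed by -7.90 on the log2 scale. The ligands Areg (7.64) and Btc (6.11) were higher in luminal and Ereg (-6.45) in basal cells on the log2 scale. The feedback inhibitor Errfi1 was at 307, 433 and 456 against 3314, 2783 and 4211 CPM (log2 -3.11, adjusted p = 6.77e-06).

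Of 24 FGF, IGF and other growth factor genes, 13 were higher in basal and 2 in luminal cells (median log2 -2.03; without luminal replicate 3, 15 and 3). The luminal count was 0 without MMTVRANK basal replicate 1 and 1 without MMTVRANK luminal replicate 2 or basal replicate 3. Hgf, the ligand of Met, was at 0.136, 0 and 0.762 against 76.5, 71.1 and 120.3 CPM (log2 -8.12, adjusted p = 8.77e-06) and Igfbp3, which binds IGFs, at 1.09, 1.02 and 3.46 against 357, 698 and 623 CPM (log2 -8.21, adjusted p = 1.03e-06). Igfbp4 (-5.73), Igfbp5 (-4.53), Igfbp7 (-3.45), Igf1r (-2.72) and Pdgfa (-4.17, with 26.1% of its exon length shared) were higher in basal cells on the log2 scale. Axon guidance genes followed the same side, 28 of 43 basal and 3 luminal (without luminal replicate 3, 30 and 3). Sema5a was at 2.11, 1.79 and 7.56 against 383, 365 and 372 CPM (log2 -6.60, adjusted p = 1.89e-05), and the repellents Slit2 (-6.83) and Slit3 (-7.26) and the receptor Ephb1 (-7.51) were also higher in basal cells. Sema4d, at 54.0, 46.5 and 63.4 against 5.60, 2.11 and 5.80 CPM (log2 3.59, adjusted p = 5.28e-06), was higher in luminal cells.

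Matrix and matrix protease genes were higher in basal cells for 16 of 28 tested and in luminal cells for 2 (median log2 -2.16; without luminal replicate 3, 15 and 1 of 29). The proteoglycan Vcan was at 9.19, 3.90 and 10.3 CPM in luminal and 1199.5, 1510.1 and 1329 CPM in basal replicates 1 to 3 (log2 fold change -7.43, SE 0.59, adjusted p = 4.70e-06), the gelatinase Mmp2 at 3.20, 0.959 and 10.3 against 529, 577 and 802 CPM (log2 -7.04, adjusted p = 1.18e-04) and Ctgf, which shares 23.2% of its exon length, at 5.65, 4.16 and 21.0 against 668, 683 and 759 CPM (log2 -6.09, adjusted p = 4.79e-05). Plaur, the urokinase receptor, was higher in luminal cells (log2 2.47, adjusted p = 0.00432). Senescence-associated secreted factors, which overlap these lists, were higher in basal cells for 21 of 35 and in luminal cells for 3 (without luminal replicate 3, 20 and 3 of 36). The leading basal members were IGF-binding proteins, Hgf and Mmp2, and the 3 luminal ones were Areg (7.64), Tgfb1 (1.43) and Csf3 (1.96), on the log2 scale. Il6 was higher in basal cells (log2 -3.47, adjusted p = 0.0343), a call lost without MMTVRANK luminal replicate 1 (adjusted p = 0.109), MMTVRANK basal replicate 2 (adjusted p = 0.0765), MMTVRANK luminal replicate 2 (adjusted p = 0.112) or MMTVRANK basal replicate 3 (adjusted p = 0.102).

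Among 22 chemokines, 6 were higher in basal and 3 in luminal cells (without luminal replicate 3, 6 and 2), a share close to the 33.2% of all genes. The luminal count was 1 without MMTVRANK basal replicate 1 or 2 and 5 without MMTVRANK luminal replicate 1. Cxcl14 was at 2.45, 1.34 and 8.03 CPM in luminal and 1075, 1326 and 985 CPM in basal replicates 1 to 3 (log2 fold change -8.15, SE 1.00, adjusted p = 1.09e-04) and Cxcl12, the ligand of Cxcr4, at 3.68, 1.21 and 3.81 against 139, 198 and 219 CPM (log2 -5.99, adjusted p = 1.41e-05). The monocyte attractant Ccl2 was at 0.204, 0.639 and 6.74 against 35.2, 52.2 and 86.5 CPM (log2 -4.49, adjusted p = 0.00343). Besides Cxcl15, the luminal ones were Ccl5 (log2 4.90, adjusted p = 0.023) and Ccl9 (log2 6.62, adjusted p = 0.0301). The Ccl5 call was lost without MMTVRANK basal replicate 1 (adjusted p = 0.0663), MMTVRANK basal replicate 2 (adjusted p = 0.0869) or MMTVRANK luminal replicate 2 (adjusted p = 0.0749). That of Ccl9 was lost without MMTVRANK basal replicate 1 (adjusted p = 0.104), MMTVRANK basal replicate 2 (adjusted p = 0.105), MMTVRANK basal replicate 3 (adjusted p = 0.0612) or MMTVRANK luminal replicate 3 (adjusted p = 0.122).

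Proliferation genes had mostly positive log2 fold changes, 45 of 47 (median 0.99), but 2 were called higher in luminal and 0 in basal cells, below the share of all genes. With the replicate number as a block 20 were called higher in luminal cells, and with the 6 MMTVRANK libraries alone 15. The block added Tyms (adjusted p = 0.0265, 0.0507 without it), Gins2 (0.0167, 0.0557 without it) and Cdc6 (0.0279, 0.0805 without it), among others. Gins2 shares 67.3% of its exon length with an opposite gene. The count was 0 without MMTVRANK luminal replicate 1 or basal replicate 3, 1 without MMTVRANK luminal replicate 3 or basal replicate 2, 7 without WT basal replicate 2 and 8 without WT basal replicate 3. Mki67 was at 911, 402 and 878 CPM in luminal and 501, 434 and 219.9 CPM in basal replicates 1 to 3 (log2 fold change 0.92, SE 0.90, adjusted p = 0.476), high in luminal replicates 1 and 3, lower in luminal replicate 2 and overlapping with basal. The summed level of the list was 4294, 1923 and 3922 CPM in luminal and 2395, 1788 and 1347 CPM in basal replicates. The 2 called members were Tk1, thymidine kinase, at 44.2, 18.7 and 36.6 against 15.0, 13.0 and 6.97 CPM (log2 1.51, adjusted p = 0.0131), and Birc5, survivin, at 63.0, 24.3 and 43.0 against 8.85, 9.36 and 5.95 CPM (log2 2.43, adjusted p = 0.0304). The Tk1 call was lost without MMTVRANK luminal replicate 1 (adjusted p = 0.0571) or MMTVRANK basal replicate 3 (adjusted p = 0.0559), that of Birc5 without MMTVRANK basal replicate 1 (adjusted p = 0.0835), MMTVRANK luminal replicate 1 (adjusted p = 0.101), MMTVRANK basal replicate 2 (adjusted p = 0.08), MMTVRANK basal replicate 3 (adjusted p = 0.106) or MMTVRANK luminal replicate 3 (adjusted p = 0.057).

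Cell cycle inhibitors and senescence genes, a list that also holds regulators such as Bmi1 and Hmga1, differed gene by gene, 5 of 23 higher in luminal and 5 in basal cells (median log2 0.17; without luminal replicate 3, 5 and 4 of 23). Over all genes the shares were 16.1% and 17%. The basal count was 3 without MMTVRANK luminal replicate 1 or basal replicate 3. Cdkn2a, which encodes p16 and p19Arf, was at 11.9, 8.38 and 4.04 CPM in luminal and 0.227, 0.0843 and 0.313 CPM in basal replicates 1 to 3 (log2 fold change 5.21, SE 0.89, adjusted p = 6.62e-04), above every basal library in all 3 luminal ones though low. Cdkn1c, p57, was at 1.29, 0.448 and 1.70 against 15.6, 13.2 and 36.7 CPM (log2 -4.23, adjusted p = 1.39e-04), with 30.7% of its exon length shared with another transcript. Cdkn1a, p21, was at 59.9, 49.0 and 36.9 against 48.8, 38.1 and 42.6 CPM and was not called (log2 0.17, adjusted p = 0.525). Bmi1, a repressor of Cdkn2a, was at 63.4, 47.5 and 54.2 against 25.6, 16.6 and 27.1 CPM (log2 1.25, adjusted p = 0.0028), the groups not overlapping. Hmga1, a chromatin protein, was higher in luminal cells by 1.88 on the log2 scale.

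Of 18 tested antigen presentation genes 11 were higher in luminal and 0 in basal cells (median log2 1.85; without luminal replicate 3, 11 and 1 of 18). The immunoproteasome subunit Psmb9 was at 57.2, 59.7 and 73.1 CPM in luminal and 4.39, 9.61 and 8.23 CPM in basal replicates 1 to 3 (log2 fold change 3.10, SE 0.38, adjusted p = 5.31e-05). The class I heavy chain H2-K1 was at 583, 765 and 1041 against 122, 256 and 299 CPM (log2 1.82, adjusted p = 9.06e-04), and B2m differed by 2.15 on the log2 scale. Class I heavy chains have near-identical copies, so reads of H2-K1 could be split or lost. The class II genes were high in 1 library: Cd74 was at 3.06, 24.0 and 610.3 against 7.26, 13.1 and 52.9 CPM (log2 3.12, adjusted p = 0.14) and H2-Ab1 at 0.817, 2.88 and 171 against 1.44, 1.35 and 11.4 CPM (log2 3.61, adjusted p = 0.108), and without luminal replicate 3 their log2 fold changes were -0.84 and -1.34. The leukocyte gene Ptprc peaked in the same library, at 0.817, 0.384 and 48.7 against 0.681, 2.78 and 12.2 CPM.

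Of 35 interferon response genes, 6 were higher in luminal and 1 in basal cells (median log2 0.68; without luminal replicate 3, 4 and 1 of 35), a smaller share than among all genes. With the replicate block the counts were 10 and 2, and the luminal count was 3 without MMTVRANK basal replicate 1 or luminal replicate 2. Parp9 was at 82.9, 93.3 and 96.5 against 12.1, 30.8 and 23 CPM (log2 2.05, adjusted p = 0.00103) and its partner Dtx3l at 153, 162 and 226 against 18.9, 56.7 and 47.0 CPM (log2 2.14, adjusted p = 0.00148). Irgm1 went the other way, at 27.6, 32.0 and 34.7 against 64.7, 311 and 244 CPM (log2 -2.72, adjusted p = 0.00738). Basal replicate 1 was the lowest basal library for all 3, and the list summed to 553, 1918 and 1341 CPM in basal and 1301, 1933 and 1665 CPM in luminal replicates. Acute phase and antibacterial genes were higher in luminal cells for 7 of 16 and in basal cells for 2 (without luminal replicate 3, 7 and 3 of 17). Hp, haptoglobin, was at 44.2, 50.6 and 47.2 against 0.378, 0.675 and 1.10 CPM (log2 6.03, adjusted p = 8.18e-07) and Wfdc2, a secreted WAP-family protein, at 477, 281 and 185 against 2.27, 0.337 and 1.33 CPM (log2 7.88, adjusted p = 1.24e-05).

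Transporters of ions, water and nutrients were higher in luminal cells for 12 of 24 and in basal cells for 3 (median log2 1.85; without luminal replicate 3, 10 and 3 of 24), beside 16.1% and 17% of all genes. The sodium pump subunit Atp1b1 was at 131, 175 and 157 CPM in luminal and 4.39, 1.43 and 3.53 CPM in basal replicates 1 to 3 (log2 fold change 5.62, SE 0.45, adjusted p = 3.51e-06). The proton pump subunit Atp6v1b1 was at 27.4, 26.9 and 55.0 against 0.529, 1.18 and 0.705 CPM (log2 5.50, adjusted p = 1.05e-05), and the epithelial sodium channel Scnn1a at 123, 128 and 60.7 against 7.87, 7.84 and 3.68 CPM (log2 4.01, adjusted p = 1.65e-05). Aqp5, a water channel (7.42), and Cftr, a chloride channel (5.11), were higher in luminal cells, Cftr not without luminal replicate 3 (adjusted p = 0.058). The amino acid carrier chains Slc7a5, at 23.3, 12.7 and 17.2 against 325, 229.8 and 154 CPM (log2 -3.74, adjusted p = 7.30e-05), and Slc3a2 (-1.57) and the glucose carrier Slc2a1 (-0.99) were higher in basal cells.

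Nuclear genes of oxidative phosphorylation were slightly higher in luminal cells, 10 of 21 called and none in basal cells, with a median log2 of 0.48 (without luminal replicate 3, 10 and 0 of 21), beside 16.1% and 17% of all genes. The count was 6 without MMTVRANK luminal replicate 1. Cox4i1 was at 329, 347 and 308 against 164, 153 and 169 CPM (log2 1.01, adjusted p = 1.76e-04). The 7 tested mitochondrially encoded genes had log2 fold changes below 0 and none was called: mt-Nd1 was at 925, 1033 and 892 against 1698, 2738 and 1563 CPM (log2 -1.07, adjusted p = 0.0982), with basal replicate 2 the highest. mt-Nd1, mt-Nd2, mt-Co1, mt-Nd4 and mt-Cytb passed with the replicate number as a block, all higher in basal cells, with mt-Nd1 at an adjusted p of 0.00378. mt-Nd1, mt-Nd2 and mt-Co1 also passed without WT luminal replicate 1 (adjusted p = 0.0217, 0.0394 and 0.048). Genes of fatty acid, milk fat and cholesterol synthesis were divided, 6 of 26 higher in luminal and 4 in basal cells, a share near that of all genes (median log2 -0.023; without luminal replicate 3, 6 and 4 of 26). Lpin1 was at 152, 129.7 and 109 against 29.6, 33.3 and 31.3 CPM (log2 2.05, adjusted p = 6.01e-05), Dgat2, which makes triglyceride, at 128, 109.9 and 56.6 against 20.6, 21.8 and 22.6 CPM (log2 2.18, adjusted p = 8.93e-05), and Cyp51, of cholesterol synthesis, at 21.6, 18.4 and 18.2 against 41.4, 38.2 and 43.1 CPM (log2 -1.08, adjusted p = 0.00107).

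Immediate early and heat shock genes, which also respond to cell dissociation, were higher in basal cells for 9 of 25 and in luminal cells for 3 (median log2 -0.49), beside 17% and 16.1% of all genes. Without luminal replicate 3 the counts were 5 and 4, and the basal count was also 5 without MMTVRANK luminal replicate 2 or basal replicate 3. The luminal count was 1 without MMTVRANK luminal replicate 1. Myc was at 73.9, 86.5 and 100.4 against 405, 330.0 and 431 CPM (log2 -2.16, adjusted p = 6.41e-06) and Nr4a1 at 199, 159.5 and 299 against 1412, 861 and 1589 CPM (log2 -2.55, adjusted p = 7.40e-05). For both genes every basal library lay above every luminal one.

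Markers of other cell types were present at low level in both sorts. Of 12 endothelial markers, 10 were higher in basal and 1 in luminal cells (without luminal replicate 3, 9 and 1). Kdr was at 0.953, 0.448 and 2.58 against 17.9, 51.8 and 56.7 CPM (log2 -4.97, adjusted p = 1.04e-04) and Pecam1 at 8.51, 5.56 and 10.3 against 14.6, 40.7 and 41.9 CPM (log2 -2.0, adjusted p = 0.00341), with basal replicate 1 the lowest basal library. Vwf ran against the rest, at 152, 244 and 109 against 6.58, 9.44 and 10.3 CPM (log2 4.26, adjusted p = 7.50e-06). The list summed to 205, 270.0 and 153 CPM in luminal and 132, 374 and 371 CPM in basal replicates, and Vwf made up most of the luminal sum.

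Of 13 fibroblast markers 4 were higher in basal cells (without luminal replicate 3, 5), beside 17% of all genes. The count was 7 with the replicate block and 7 without WT basal replicate 1. Those called included Serpinf1, at 1.36, 0.192 and 3.63 against 253, 198 and 194 CPM (log2 -6.93, adjusted p = 8.64e-05), and Fbln1, at 1.91, 1.85 and 2.34 against 79.3, 78.2 and 54.6 CPM (log2 -5.11, adjusted p = 5.48e-05). Collagen I chain Col1a2 was at 5.17, 3.00 and 30.7 against 61.6, 55.2 and 91.5 CPM and not called (log2 -2.42, adjusted p = 0.0992; it passed with the replicate block at 0.0225 and without WT basal replicate 1 (adjusted p = 0.0402) or MMTVRANK luminal replicate 3 (adjusted p = 0.0331)). The fibroblast list summed to 121, 82.3 and 262 CPM in luminal and 1026, 796 and 957 CPM in basal replicates, below the 40958, 40995 and 43462 CPM of contractile genes. Of the Schwann cell markers 3 of 5 were higher in basal cells with and without luminal replicate 3, and the list summed to 59.2, 75.7 and 80.0 CPM in luminal and 228, 37.0 and 258 CPM in basal replicates, where basal replicate 2 was the lowest basal library.

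Of the pericyte markers 3 of 7 were higher in basal and 1, Notch3, in luminal cells (without luminal replicate 3, 4 and 1). The call of Cspg4 (log2 -2.02, adjusted p = 0.0474), 1 of the 3, was kept in 2 of the 12 fits that left out 1 library, those without MMTVRANK luminal replicate 3 or WT luminal replicate 1, and the adjusted p of the other 10 ran to 0.149, without MMTVRANK luminal replicate 2. Another member, Abcc9 (log2 -2.46, adjusted p = 0.11), was called with the replicate block (adjusted p = 0.0343). The markers summed to 229, 204 and 188 CPM in luminal and 88.3, 97.7 and 136 CPM in basal replicates. Notch3 alone made up most of the luminal sum and a small part of the basal one. Both tested adipocyte markers, Fabp4 (-3.85) and Lep (-4.76), were higher in basal cells with and without luminal replicate 3, and the 7 genes of that list summed to 9.67, 1.60 and 9.90 CPM in luminal and 47.0, 90.5 and 149.6 CPM in basal replicates. Of 18 leukocyte markers 2 were higher in luminal cells (without luminal replicate 3, 2 and 1 of 18 in luminal and basal cells), Lcp1 at 120.1, 132 and 182 against 10.3, 9.02 and 13.6 CPM (log2 3.72, adjusted p = 2.71e-06) and Trbc2 (log2 1.77, adjusted p = 0.025; lost without MMTVRANK basal replicate 1 (adjusted p = 0.09), MMTVRANK luminal replicate 1 (adjusted p = 0.0601), MMTVRANK basal replicate 2 (adjusted p = 0.0966) or MMTVRANK luminal replicate 2 (adjusted p = 0.0659)). Lcp1 was high in all 3 luminal libraries, unlike Ptprc. The part of any of these cell types in the differences between the sorts was not tested.

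**Figure D3:**
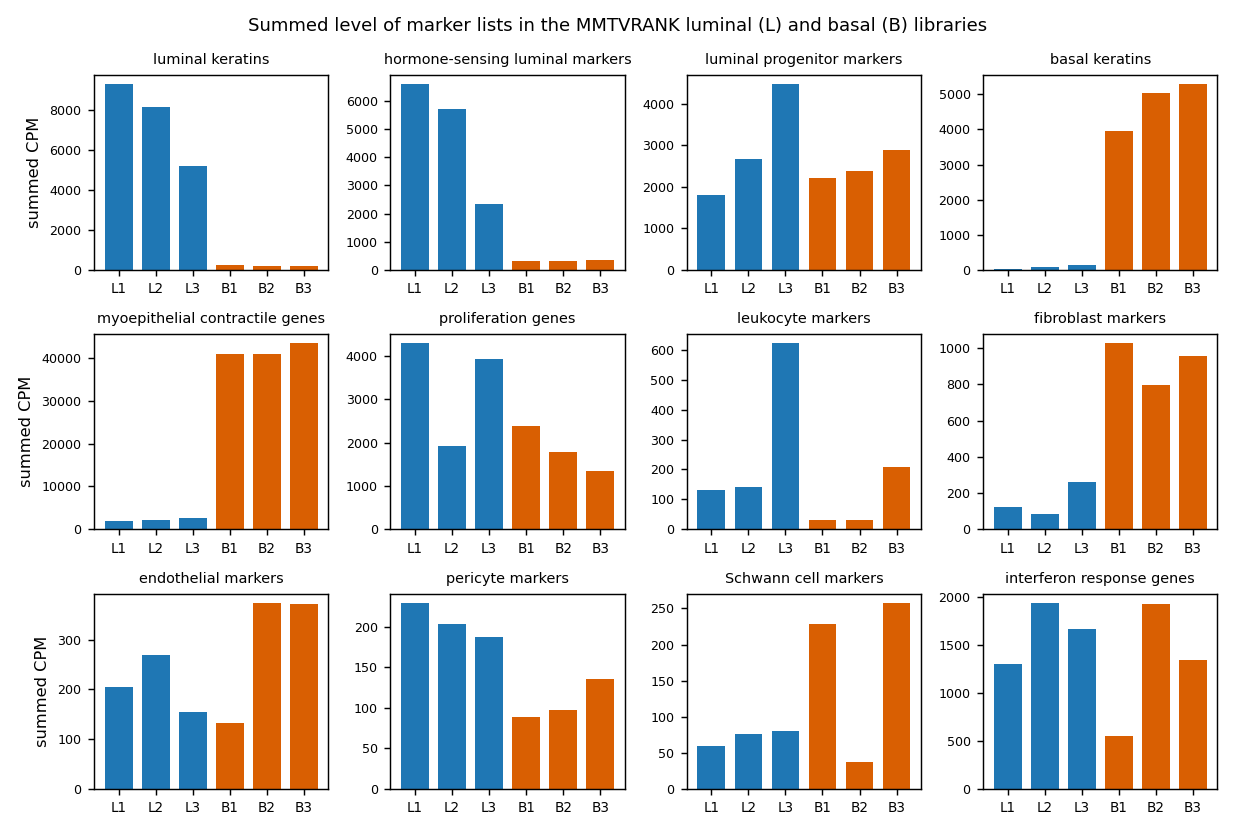
Summed CPM of 12 gene lists in each library, luminal replicates 1 to 3 (L1 to L3, blue) and basal replicates 1 to 3 (B1 to B3, orange). Each bar is 1 library and each panel has its own vertical axis from 0. L3 has the highest leukocyte sum (622 CPM) and the lowest luminal sum of hormone-sensing markers (2342 CPM), B1 the lowest interferon sum (553 CPM) and B2 the lowest Schwann sum (37.0 CPM).

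The same lineage difference was fitted in WT, where 6940 genes (38.1%) passed. Of the 6049 genes called in MMTVRANK, 4941 were called in WT in the same direction, 81.7% of the MMTVRANK and 71.2% of the WT calls. A further 2, noted after their values were seen, were called in opposite directions. Tfrc, the transferrin receptor, had a log2 fold change of 0.92 in MMTVRANK and -0.78 in WT, and the clone gene RP24-392J14.2 had -3.00 and 2.23. Neither of them passed in the test of the difference between the genotypes, given below. Across the 18236 genes the log2 fold changes of the 2 genotypes correlated with a Pearson r of 0.84, which describes genes measured in separate libraries and is no test. A test of the difference between the genotypes in the lineage effect called 1 gene (0.00548%), with 1410 at an unadjusted p under 0.05. In the fits that left out 1 library that count ran from 0 to 7, the highest without MMTVRANK luminal replicate 1, and DESeq2 called 140.

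That gene was Epb41l3, which links membrane proteins to the actin skeleton (chr17:69075683-69289989, plus strand). It was at 3.20, 1.92 and 3.51 CPM in luminal and 96.1, 78.4 and 73.0 CPM in basal replicates 1 to 3 of MMTVRANK (log2 fold change -4.84, SE 0.36, adjusted p = 1.53e-06). In WT it was at 24.5, 25.1 and 28.9 CPM in luminal and 49.1, 86.2 and 32.8 CPM in basal replicates (log2 -1.10, adjusted p = 0.014). Every MMTVRANK luminal library lay below every WT luminal one, and the difference of the log2 effects was -3.74 (SE 0.46, adjusted p = 0.042). With the replicate number as a block the adjusted p was 0.111, and without both WT replicate 2 libraries it was 0.0168. Of the 12 fits that left out 1 library, 7 lost the call: those without MMTVRANK basal replicate 1 (adjusted p = 0.161), 2 (0.153) or 3 (0.114), MMTVRANK luminal replicate 2 (0.119), WT basal replicate 1 (0.124), or WT luminal replicate 1 (0.123) or 2 (0.0536).

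Other genes differed in fitted effect without passing. Csn3 had a WT log2 fold change of 4.66 (luminal 560.4, 219 and 799 CPM, basal 14.3, 29.4 and 18.7 CPM), against -0.65 in MMTVRANK (adjusted p of the difference = 0.127). Crb3 had 3.78 in WT and 6.33 in MMTVRANK (adjusted p of the difference = 0.0944). For Cdkn2a the 2 values were 2.76 and 5.21 (adjusted p of the difference = 0.646). None of these 3 differences passed in edgeR's quasi-likelihood test, which does not show that the effects were alike.

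**Figure D4:**
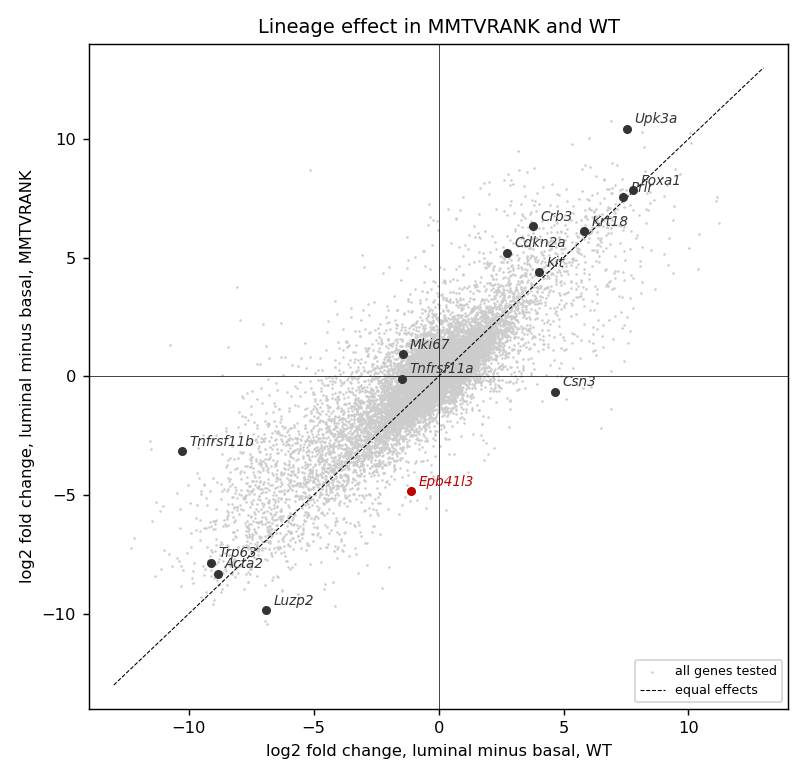
Log2 fold change, luminal minus basal, of each of the 18236 tested genes in WT (horizontal axis) and in MMTVRANK (vertical axis). The dashed line marks equal effects. Labelled points are genes named in the text, and Epb41l3 (red), at -1.10 in WT and -4.84 in MMTVRANK, is the 1 gene whose effect differed past the threshold.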

How the data were processed

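RNA of sorted luminal and basal cells was sequenced from 12 libraries in 4 groups of 3. Reads were aligned with STAR 2.6.1b, per the submitters' processing notes, and counted per gene with featureCounts 1.5.2 on GRCm38.p6 with the GENCODE M17 annotation, per the file headers. No strand option appears in the header, so reads of overlapping genes cannot be told apart. The deposited values are raw counts for 53735 gene symbols, of which 15946 had no count. Coordinates are the authors' GRCm38 gene spans.

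From the counts, genes were kept by filterByExpr (minimum count 10), scaled with TMM factors and fitted with edgeR 4.0.16 (robust quasi-likelihood, all 12 libraries, group as the only term, R 4.3.3). Two-sided p-values were Benjamini-Hochberg adjusted over the 18236 genes, with a threshold of 0.05. Standard errors are the log2 fold change over the root of F. Totals ran from 12459500 to 15069600 counts, and the common biological coefficient of variation was 0.45. The fit was checked on made-up counts with known changes before use. It recovered 20% of 100 genes changed 2-fold and 83% of 100 changed 4-fold, with 0 false calls. Most 2-fold changes in the made-up counts were thus missed. Only these genes of 17541 were changed there, whereas 6049 passed in the real fit, and the adjusted threshold depends on that number. The recovered shares therefore do not carry over to the real fit. A gene not called may still differ. No 2 libraries agreed within sampling noise (66 pairs). Intervals cover counting error only.

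Within MMTVRANK, luminal and basal libraries of the same replicate number deviated together (correlations of 0.278, 0.144 and 0.199 over 10082 genes, and -0.197 to -0.0047 for other pairs), so the numbers were taken as pairs from the data, since the labels do not state it. The unblocked fit stayed the main one, and blocked values stand where they change the call of a gene named in the report.

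Members and gene lists were chosen with earlier results of these data known. Genes named by rule were the 12 largest changes in each direction among called genes with an average log2 CPM of 3 or more whose populations did not overlap, a fixed set around Rank and lineage, and up to 6 members of each list with the smallest p. Others named (among them Tfap2c, Runx1, Itgb4, Itgb6, Lama5, Wnt4, Egfr, Btc, Hes1, Plaur, Cd74, Aqp5, Tgfb1, Myl9 and Vcl) were picked after their values were seen. Alternatives were RLE factors, no filter, DESeq2 1.42.0, limma-voom (limma 3.58.1), a test against a 2-fold change, the replicate block, the 6 MMTVRANK libraries alone, each library left out and, chosen after seeing the data, both WT replicate 2 libraries left out. Results for some items are not reported here.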

Additional observations from a re-analysis of the deposited data

Results flagged for a closer look

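Epb41l3 was singled out because its luminal minus basal effect differed between the genotypes in the test of the difference itself: the MMTVRANK log2 effect minus the WT effect was -3.74 (adjusted p = 0.0420, edgeR's quasi-likelihood test). In all 3 MMTVRANK luminal libraries the gene was lower than in any of the 3 WT luminal libraries. The call was lost with limma-voom (adjusted p = 0.410), in the test against a 2-fold change (0.169) and with the replicate block (0.111).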

How the results depend on the processing

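The count of 6049 genes stayed within 1.5 times under every alternative but the test against a 2-fold change, which left 2741 (1081 luminal, 1660 basal). It was 6001 with RLE factors, 6854 with DESeq2, 6316 with limma-voom, 6091 without a filter, 6936 with the 6 MMTVRANK libraries alone, and 4612 to 6415 with 1 library left out (2090 to 3141 luminal and 2386 to 3337 basal). No gene called in both fits changed direction. With the replicate block it was 6281, and of the genes named in the report it changed no call beyond those given there. The difference between genotypes was the unstable result: 1 gene became 776 without a filter, 140 with DESeq2, 3 without both WT replicate 2 libraries, and 0 with limma-voom, the 2-fold test or the block, and 0 to 7 with 1 library left out. The cause was not tested, and the fit without a filter gave adjusted p-values so small for some genes that its 776 is doubtful.

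Of 305 named genes and list members with repeated tests, 210 stayed on the same side of the threshold, called or not, under every alternative that gave them a value, at most 21. Signs turned for 10 genes, none called. Over the fits that left out 1 library, log2 values ran from -0.41 to 0.46 for Tnfrsf11a (0.0060 with the block), -0.0094 to 0.34 for Cdkn1a and -0.17 to 1.01 for Mbp, with 0.14 for Tnfrsf11a without luminal replicate 2. They turned without luminal replicate 3, with ranges of -2.14 to 3.14 for Coro1a, -1.80 to 4.44 for Cd52, -3.30 to 4.68 for Ighm, -4.50 to 6.06 for Tyrobp, -0.84 to 4.39 for Cd74, -1.34 to 5.38 for H2-Ab1 and -3.09 to 3.27 for Ptprc. With limma-voom Coro1a was at -0.12 and Ptprc at -0.026.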
